A study of Mus musculus with 6 samples.

Results

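The genes described here are 35 genes of cholesterol and fatty acid synthesis in mouse NIH3T3 fibroblasts, listed by name and found through their Ensembl mouse identifiers among the 55401 genes of the count tables. They comprise 5 regulators of the SREBP transcription factors, 18 enzymes of sterol synthesis, 2 genes of sterol transport and 10 enzymes of fatty acid synthesis, and all 35 were among the 18539 genes with enough reads to be tested. The study asked how NIH3T3 cells that express TAZ-CAMTA1, the fusion protein of epithelioid hemangioendothelioma, respond to aurintricarboxylic acid (ATA), a compound that interferes with the contact between TAZ and TEAD proteins. Polyadenylated RNA was sequenced from cells with an empty vector given DMSO (EV, 2 libraries), cells with TAZ-CAMTA1 given DMSO (TC, 1 library) and cells with TAZ-CAMTA1 given 10 μM ATA (TC + ATA, 3 libraries). All cells were seeded for 16 h before 48 h of treatment, and whether a line was 1 clone or a pool is not given in the sources used here. The libraries held 58471484 to 74413193 counted reads each.

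Cells sense cholesterol in the membrane of the endoplasmic reticulum, where SCAP binds the SREBP precursors and INSIG proteins hold the pair in place when sterols are plentiful. When sterols run low, SCAP carries the precursors to the Golgi, where proteases release the part that enters the nucleus and turns on the enzymes of sterol and fatty acid synthesis. SREBF2 is known mainly for the sterol branch and SREBF1 mainly for the fatty acid branch, and cultured fibroblasts run both branches to supply their membranes.

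Levels below are read counts scaled to library size with TMM and given as CPM, and a gene was called when edgeR's quasi-likelihood test gave an adjusted p of at most 0.05 over all 18539 genes. The TC group has 1 library, so its side of a comparison has no replicate check; the comparison of TC with EV and that of TC + ATA with TC share that library, and the 2 comparisons with EV share both EV libraries. The labels do not say that replicates came from separate cultures, so p-values measure the spread between these libraries, and in bulk RNA fewer cells of a kind and less RNA per cell cannot be told apart.

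In TC versus EV, 19 of the 35 genes fell and 3 rose, where 13.2% of all genes tested were called lower and 14.8% were called higher. The sterol branch accounted for 16 of the 19, since 16 of its 18 enzymes fell; edgeR called 0 of them higher, 0 were higher at an unadjusted p below 0.05, and DESeq2 called 16 lower and 0 higher. Leaving out EV replicate 1 gave 17 sterol enzymes called lower and 1, Ebp, called higher, and leaving out TC + ATA replicate 1, 2 or 3 gave 13 called lower each time and 2 of the 35 called higher. Over all genes these settings gave 3708 lower and 3746 higher without EV replicate 1, and 2073, 1916 or 1912 lower and 2296, 2170 or 2162 higher without TC + ATA replicate 1, 2 or 3. For 17 of the 18 sterol enzymes the TC library lay below both EV libraries, which held for 40% of all genes tested. The median log2 fold change was -0.59 for the sterol enzymes, with quartiles of -0.75 and -0.44, and -0.16 for the fatty acid enzymes, with quartiles of -0.27 and 0.002, beside -0.03 over all genes. The fatty acid median was -0.09 without EV replicate 1 and -0.27 under library-total scaling. None of the 35 had a log2 fold change beyond 2 in size, which 3.64% of all genes had among those called. Scaling by library totals alone lowered the median of all genes to -0.13 and called 2072 genes higher and 3159 lower, beside 2735 and 2456 with TMM. Under that scaling 17 of 18 sterol enzymes were called lower, under upper-quartile scaling 16 of 18 were, and in a fit of the EV and TC libraries alone 11 were, since Hmgcs1, Mvk, Sqle, Cyp51 and Msmo1 then missed the threshold, as did Fasn and Elovl5. Over all genes the fit of EV and TC alone called 1858 higher and 1808 lower.

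**Figure D1:**
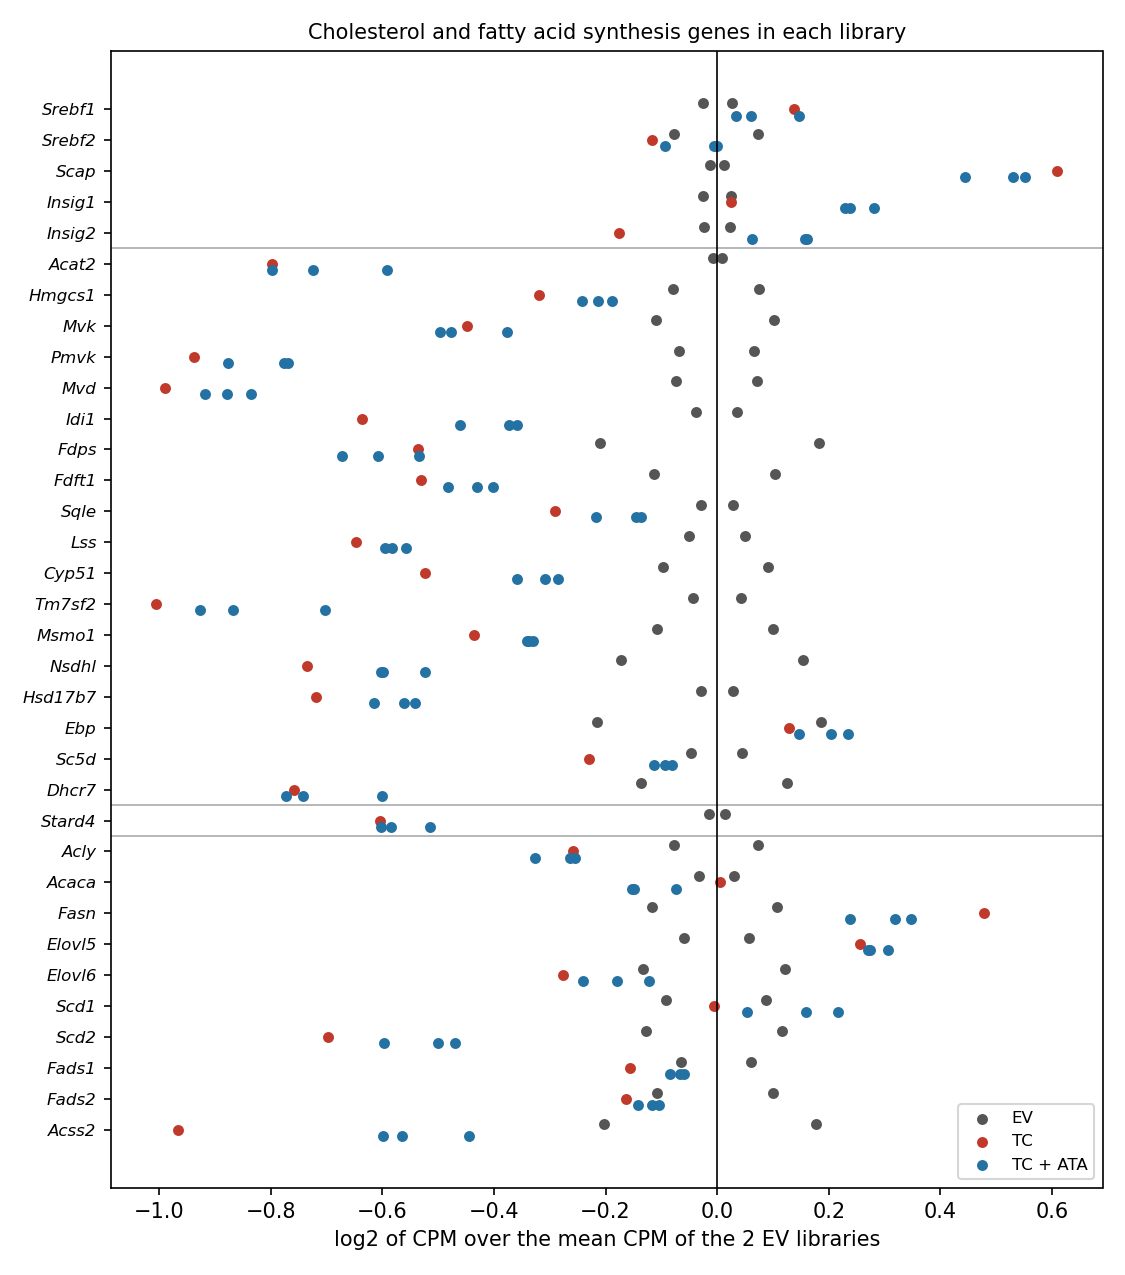
Level of 34 genes in each library, as log2 of CPM over the mean CPM of the 2 EV libraries; each point is 1 library, grey for EV, red for TC and blue for TC + ATA, and lines part the regulators, sterol enzymes, sterol transport and fatty acid enzymes. Abca1, below 0.5 CPM in every library, is not drawn, and Ebp is the 1 sterol enzyme whose TC point lies among its EV points.

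Among the regulators, Scap was the 1 gene called in TC versus EV. Scap, which encodes the escort of the SREBP precursors, measured 62.7 and 61.7 CPM in EV, 94.9 in TC, and 91.2, 89.8 and 84.6 in TC + ATA. Every library with TAZ-CAMTA1 lay above both EV libraries, and the TC library was the highest. In TC versus EV it rose, with a log2 fold change of 0.61 (SE 0.08, edgeR adjusted p 5.46e-04). Of the 7443 bases of its exons, 985 are shared with a gene on the opposite strand, 5830462I19Rik. Reads in that shared stretch cannot be told apart because the sources used here do not say whether counting used strand.

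Srebf1, which encodes the factor tied mainly to fatty acid genes, measured 54.9 and 53.0 CPM in EV, 59.4 in TC, and 59.8, 56.3 and 55.3 in TC + ATA. The TC library was above both EV libraries, and 1 of the TC + ATA libraries was higher still. In TC versus EV Srebf1 was not called, with a log2 fold change of 0.14 (SE 0.09, edgeR adjusted p 0.273). Srebf2, which encodes the factor tied mainly to sterol genes, measured 380.1 and 342.6 CPM in EV, 333.5 in TC, and 360.2, 361.2 and 338.8 in TC + ATA. Its TC library was the lowest of the 6, and 2 of the 3 TC + ATA libraries lay between the EV values. Srebf2 was not called in TC versus EV, with a log2 fold change of -0.12 (SE 0.10, edgeR adjusted p 0.429). Without EV replicate 2, Srebf2 was called lower, with a log2 fold change of -0.19 and an edgeR adjusted p of 0.0081 (0.0081 to 0.79 over all 12 alternatives), as it was under library-total scaling, at -0.22 and 0.0458. Without EV replicate 1 the log2 fold change of Srebf2 was -0.05.

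Insig1, itself an SREBP target whose product retains SCAP in the endoplasmic reticulum, measured 194.2 and 201.1 CPM in EV, 201.1 in TC, and 240.3, 231.8 and 233.2 in TC + ATA. Its TC value matched the higher EV library, and the 3 TC + ATA libraries stood above all others. In TC versus EV Insig1 was not called, with a log2 fold change of 0.03 (SE 0.08, edgeR adjusted p 0.855). Under scaling by library totals and without EV replicate 1 its sign there was negative, with log2 fold changes of -0.08 and -0.01, and without EV replicate 2 the value was 0.05. Insig2, which has the same retaining function, measured 47.3 and 48.9 CPM in EV, 42.6 in TC, and 53.8, 53.6 and 50.2 in TC + ATA. Its TC library was the lowest and its TC + ATA libraries were the highest. Insig2 was not called in TC versus EV, with a log2 fold change of -0.18 (SE 0.09, edgeR adjusted p 0.168). Insig2 was called lower when EV replicate 1 was left out, with a log2 fold change of -0.21 and an edgeR adjusted p of 0.0311 (0.0311 to 0.549 over all 12 alternatives).

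The sterol pathway starts with acetyl-CoA, and its early enzymes build mevalonate and the activated isoprene units. Acat2, which joins acetyl-CoA units into acetoacetyl-CoA, measured 311.9 and 315.6 CPM in EV, 180.4 in TC, and 208.2, 189.8 and 180.5 in TC + ATA. Its EV libraries were close together and all 4 libraries with TAZ-CAMTA1 were far below them. Acat2 fell in TC versus EV, with a log2 fold change of -0.80 (SE 0.10, edgeR adjusted p 4.39e-04). Of the distinct 75-base words in its transcripts, 33.9% also occur in transcripts of Acat3 or Tcp1, so its counts are uncertain.

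Hmgcs1, which makes HMG-CoA from acetoacetyl-CoA, measured 244.4 and 272.0 CPM in EV, 206.9 in TC, and 226.6, 222.6 and 218.2 in TC + ATA. The TC library was lowest and the EV libraries were highest, with the TC + ATA libraries between them. Hmgcs1 fell in TC versus EV, with a log2 fold change of -0.32 (SE 0.09, edgeR adjusted p 0.0295). Its adjusted p in edgeR was 0.0765, 0.0898 or 0.0756 when TC + ATA replicate 1, 2 or 3 was left out, so this call needed all 3 (the adjusted p was 2.06e-05 to 0.309 over all 12 alternatives). Hmgcs1 shares 557 exonic bases with Gm48342 on the opposite strand.

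Mvk, which adds a phosphate to mevalonate, measured 102.1 and 88.2 CPM in EV, 69.7 in TC, and 67.5, 73.3 and 68.3 in TC + ATA. The TC and TC + ATA values overlapped, and all 4 lay below the EV libraries. Mvk fell in TC versus EV, with a log2 fold change of -0.45 (SE 0.11, edgeR adjusted p 0.0126). Pmvk, which adds a further phosphate, measured 44.1 and 40.1 CPM in EV, 22.0 in TC, and 24.6, 24.7 and 22.9 in TC + ATA. Its EV libraries stood well apart from the rest, and the TC value was the lowest. Pmvk fell in TC versus EV, with a log2 fold change of -0.94 (SE 0.10, edgeR adjusted p 1.98e-04).

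Mvd, which removes carbon dioxide from mevalonate diphosphate to give isopentenyl diphosphate, measured 100.4 and 90.8 CPM in EV, 48.1 in TC, and 53.6, 52.0 and 50.6 in TC + ATA. No library with TAZ-CAMTA1 came near either EV value. Mvd fell in TC versus EV, with a log2 fold change of -0.99 (SE 0.09, edgeR adjusted p 7.19e-05). Idi1, which isomerises isopentenyl diphosphate, measured 111.0 and 105.6 CPM in EV, 69.6 in TC, and 83.6, 84.5 and 78.7 in TC + ATA. The 3 groups did not overlap, with TC lowest, TC + ATA in the middle and EV highest. Idi1 fell in TC versus EV, with a log2 fold change of -0.64 (SE 0.09, edgeR adjusted p 6.26e-04). Of the 75-base words of Idi1, 23.6% also occur in transcripts of other genes, Gm13502 among them, which makes its counts uncertain.

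The next enzymes join the isoprene units into squalene and fold squalene into the ring system of sterols. Fdps, which makes farnesyl diphosphate, measured 15.7 and 20.6 CPM in EV, 12.5 in TC, and 11.4, 12.5 and 11.9 in TC + ATA. The EV libraries were above the other 4, but they differed from each other by more than the TC value differed from the lower of them. Fdps fell in TC versus EV, with a log2 fold change of -0.54 (SE 0.16, edgeR adjusted p 0.0385). The call was lost when TC + ATA replicate 1, 2 or 3 was left out, at an edgeR adjusted p of 0.0654, 0.0671 or 0.0844 (3.48e-04 to 0.16 over all 12 alternatives). Without EV replicate 2 the log2 fold change of Fdps was -0.33. Fdps shares 1124 exonic bases with Gm43738 on the same strand and 23.5% of its 75-base words with other genes, so its level and its fold change are uncertain.

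Fdft1, the squalene synthase, measured 204.3 and 175.8 CPM in EV, 131.6 in TC, and 143.8, 141.1 and 136.0 in TC + ATA. The TC library was the lowest and both EV libraries were above all others. Fdft1 fell in TC versus EV, with a log2 fold change of -0.53 (SE 0.10, edgeR adjusted p 0.00489). It shares 774 exonic bases with Ctsb on the opposite strand, and 21.8% of its 75-base words occur in other genes. Sqle, which oxidises squalene to its epoxide, measured 436.9 and 420.3 CPM in EV, 350.3 in TC, and 387.2, 389.8 and 368.8 in TC + ATA. The groups did not overlap, in the order TC, TC + ATA, EV. Sqle fell in TC versus EV, with a log2 fold change of -0.29 (SE 0.09, edgeR adjusted p 0.0363). Without TC + ATA replicate 1, 2 or 3 the edgeR adjusted p of Sqle was 0.103, 0.118 or 0.0836, so the call was lost each time (the adjusted p was 1.72e-04 to 0.433 over all 12 alternatives).

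Lss, which closes the rings to give lanosterol, measured 161.9 and 173.6 CPM in EV, 107.0 in TC, and 113.9, 112.0 and 111.0 in TC + ATA. All libraries with TAZ-CAMTA1 were close together and below both EV values. Lss fell in TC versus EV, with a log2 fold change of -0.65 (SE 0.08, edgeR adjusted p 4.62e-04). It shares 381 exonic bases with 4930483K19Rik on the opposite strand.

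The late enzymes trim lanosterol to cholesterol. Cyp51, which removes a methyl group from lanosterol, measured 463.4 and 406.8 CPM in EV, 302.7 in TC, and 356.7, 351.4 and 339.5 in TC + ATA. TC was lowest, EV was highest, and the TC + ATA libraries did not overlap either. Cyp51 fell in TC versus EV, with a log2 fold change of -0.52 (SE 0.10, edgeR adjusted p 0.00487). Tm7sf2, which reduces the ring double bond left by that step, measured 31.2 and 29.4 CPM in EV, 15.1 in TC, and 18.6, 16.0 and 16.6 in TC + ATA. The TC library was the lowest and both EV libraries stood far above the rest. Tm7sf2 fell in TC versus EV, with a log2 fold change of -1.005 (SE 0.12, edgeR adjusted p 3.41e-04). It shares 532 exonic bases with Vps51 on the same strand, so its level is uncertain.

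Msmo1, the methyl sterol oxidase, measured 304.6 and 263.9 CPM in EV, 210.2 in TC, and 224.5, 224.9 and 226.2 in TC + ATA. The 3 TC + ATA libraries were almost equal and lay between the TC and EV values. Msmo1 fell in TC versus EV, with a log2 fold change of -0.43 (SE 0.10, edgeR adjusted p 0.0109). Nsdhl, a dehydrogenase of the same removal of methyl groups, measured 177.9 and 141.9 CPM in EV, 96.1 in TC, and 111.3, 105.3 and 105.6 in TC + ATA. Its EV libraries differed widely, and the lower of them was still above the other 4 libraries. Nsdhl fell in TC versus EV, with a log2 fold change of -0.73 (SE 0.13, edgeR adjusted p 0.0026). Hsd17b7, which reduces the resulting ketone, measured 72.3 and 69.5 CPM in EV, 43.1 in TC, and 48.0, 48.7 and 46.3 in TC + ATA. The order was again TC, TC + ATA and EV with no overlap. Hsd17b7 fell in TC versus EV, with a log2 fold change of -0.72 (SE 0.08, edgeR adjusted p 2.58e-04).

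Ebp, which moves a double bond within the ring, measured 28.6 and 21.6 CPM in EV, 27.4 in TC, and 28.9, 27.8 and 29.5 in TC + ATA. Its EV libraries differed from each other, and the TC value and 1 of the TC + ATA values lay between them. Ebp was not called in TC versus EV, with a log2 fold change of 0.13 (SE 0.15, edgeR adjusted p 0.575). It was called higher without EV replicate 1, with a log2 fold change of 0.33 and an edgeR adjusted p of 0.0107 (0.0107 to 0.945 over all 12 alternatives), and its sign was negative without EV replicate 2, at -0.06. Sc5d, which adds a double bond to the sterol ring, measured 79.5 and 84.6 CPM in EV, 69.9 in TC, and 76.9, 77.6 and 75.8 in TC + ATA. TC was lowest, and TC + ATA lay between TC and EV. Sc5d was not called in TC versus EV, with a log2 fold change of -0.23 (SE 0.08, edgeR adjusted p 0.0638). Leaving out EV replicate 1 or 2 gave a lower call for Sc5d, at edgeR adjusted p of 0.00149 and 0.0198 (0.00149 to 0.414 over all 12 alternatives), as did library-total scaling, at 0.0322, and the filter of 5 CPM.

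Dhcr7, which carries out a final reduction on the way to cholesterol, measured 35.9 and 29.9 CPM in EV, 19.4 in TC, and 19.7, 21.7 and 19.3 in TC + ATA. The TC and TC + ATA values overlapped and all lay below EV. Dhcr7 fell in TC versus EV, with a log2 fold change of -0.76 (SE 0.13, edgeR adjusted p 0.00286). Along the pathway the decreases in TC versus EV were not graded by step: log2 fold changes beyond -0.9 occurred at Pmvk and Mvd, before squalene, and at Tm7sf2, after lanosterol, while Hmgcs1 and Sqle, at -0.32 and -0.29, were the smallest decreases called among the sterol enzymes.

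Stard4, which carries cholesterol between membranes, measured 116.3 and 114.0 CPM in EV, 75.8 in TC, and 75.9, 80.6 and 76.8 in TC + ATA. The EV libraries were close together and stood above the other 4. Stard4 fell in TC versus EV, with a log2 fold change of -0.60 (SE 0.08, edgeR adjusted p 6.31e-04). Abca1, which exports cholesterol from the cell, measured 0.401 and 0.275 CPM in EV, 0.288 in TC, and 0.246, 0.451 and 0.446 in TC + ATA. These values rest on 14 to 32 reads a library and the groups overlapped. Abca1 was not called in TC versus EV, with a log2 fold change of -0.23 (SE 0.63, edgeR adjusted p 0.831). Its sign was positive without EV replicate 1, at 0.05, and without EV replicate 2 the value was -0.48.

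**Figure D2:**
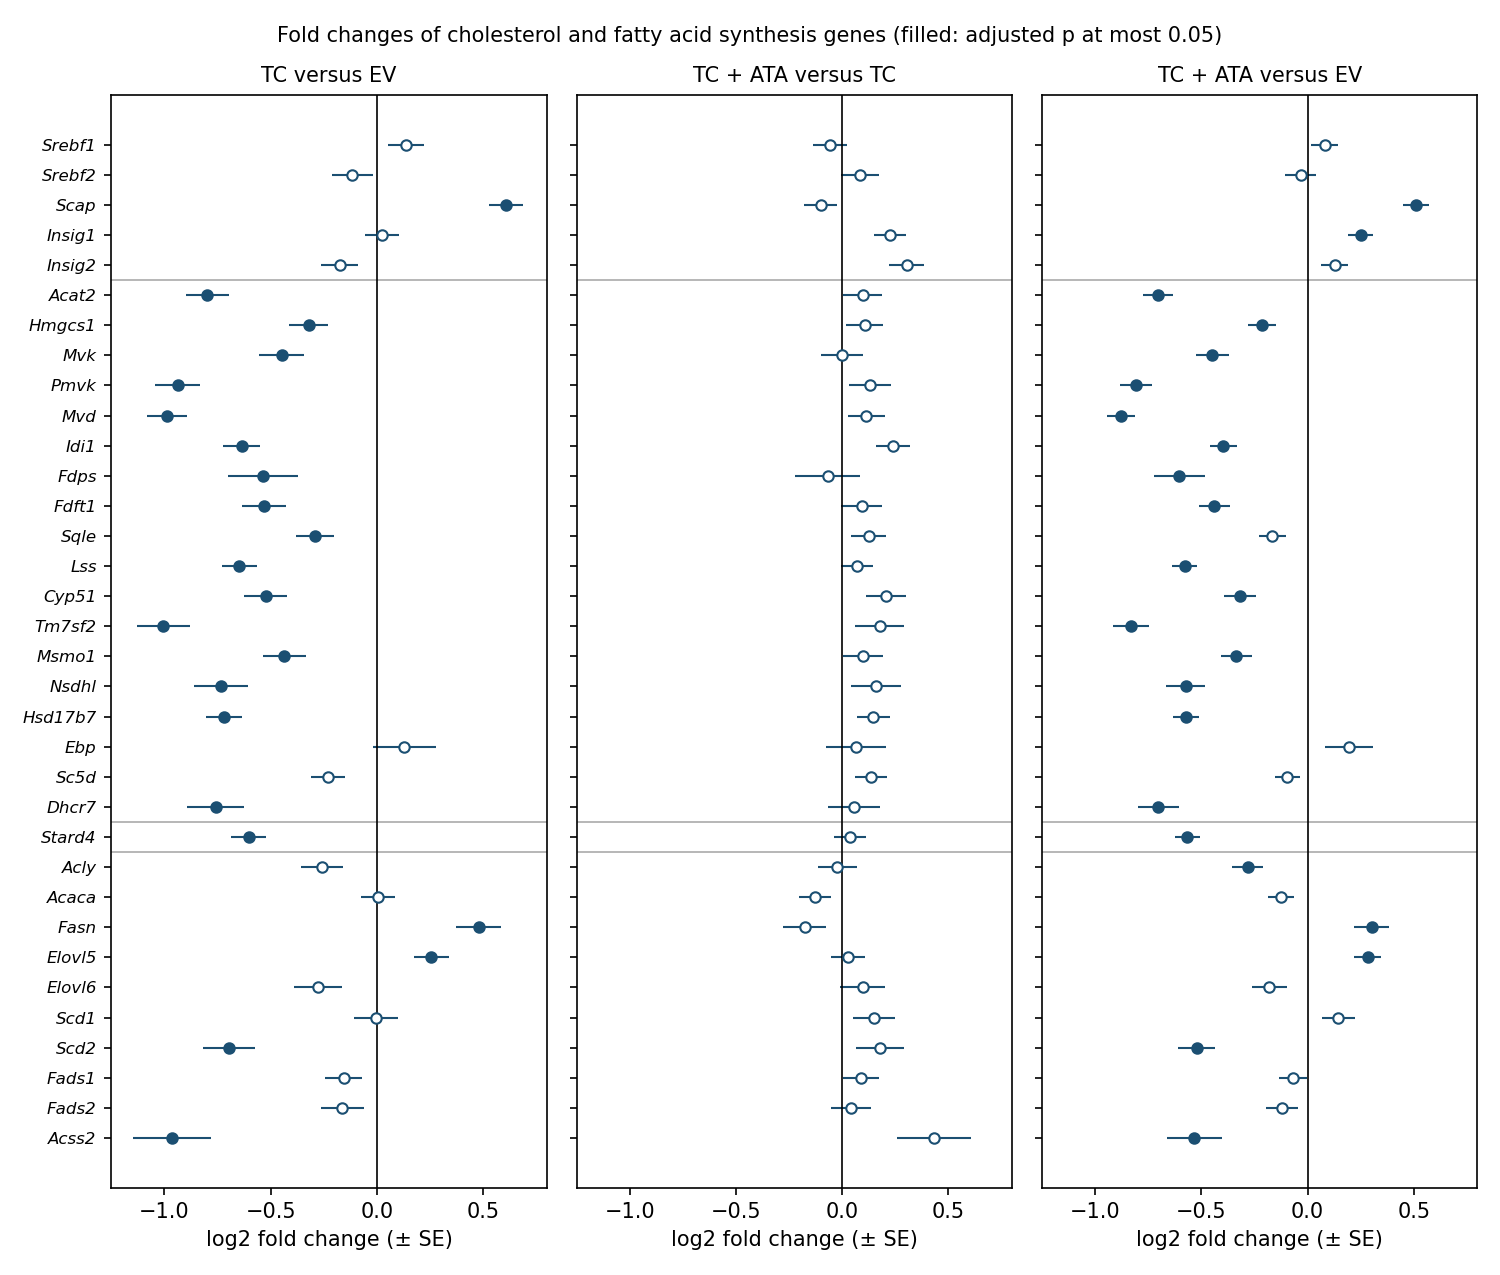
Log2 fold change (x axis, with bars for the standard error) of 34 genes in the 3 comparisons; filled points were called at an adjusted p of at most 0.05. Sterol enzymes sit left of 0 in both comparisons with EV, apart from Ebp, while no point is filled in TC + ATA versus TC.

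Of the 10 fatty acid enzymes 2 were called higher, 2 lower and 6 not called in TC versus EV, beside 14.8% of all genes called higher and 13.2% lower. With EV replicate 1 or 2 left out 4 or 5 were called lower, as lower calls over all genes went from 2456 to 3708 or 3601. With TC + ATA replicate 1, 2 or 3 left out 1 was called higher each time, as higher calls over all genes went from 2735 to 2296, 2170 or 2162. Acly, which splits citrate into acetyl-CoA for both branches, measured 665.9 and 600.4 CPM in EV, 529.3 in TC, and 527.1, 530.8 and 504.7 in TC + ATA. All 4 libraries with TAZ-CAMTA1 were below the EV libraries and close to each other. Acly was not called in TC versus EV, with a log2 fold change of -0.26 (SE 0.10, edgeR adjusted p 0.0841). With EV replicate 1 or 2 left out it was called lower, at edgeR adjusted p of 0.00315 and 8.01e-05 (8.01e-05 to 0.545 over all 12 alternatives), and also under library-total scaling, at 0.0044. Acss2, which makes acetyl-CoA from acetate, measured 12.3 and 9.44 CPM in EV, 5.56 in TC, and 7.18, 7.98 and 7.35 in TC + ATA. TC was lowest, TC + ATA was in the middle and EV was highest, with no overlap. Acss2 fell in TC versus EV, with a log2 fold change of -0.97 (SE 0.18, edgeR adjusted p 0.00418). It shares 927 exonic bases with genes on the opposite strand, Ggt7, Acss2os and Gss.

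Acaca, which makes malonyl-CoA, measured 91.4 and 87.5 CPM in EV, 89.8 in TC, and 80.7, 85.0 and 80.5 in TC + ATA. The TC value lay between the EV values and the TC + ATA values were below them. Acaca was not called in TC versus EV, with a log2 fold change of 0.01 (SE 0.08, edgeR adjusted p 0.9745). The sign of this value was negative under scaling by library totals, at -0.10, under upper-quartile scaling, at -0.003, and without EV replicate 2, at -0.03. Of its 75-base words, 26.8% occur in 45 other genes, so the counts of Acaca are uncertain. Fasn, the synthase that builds palmitate, measured 323.2 and 276.7 CPM in EV, 418.1 in TC, and 381.5, 373.9 and 354.1 in TC + ATA. TC was the highest library, and the TC + ATA libraries lay between it and EV. Fasn rose in TC versus EV, with a log2 fold change of 0.48 (SE 0.11, edgeR adjusted p 0.00945).

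Elovl5, which lengthens polyunsaturated fatty acids, measured 60.7 and 56.0 CPM in EV, 69.7 in TC, and 70.5, 70.4 and 72.2 in TC + ATA. The TC and TC + ATA libraries were close together and above EV. Elovl5 rose in TC versus EV, with a log2 fold change of 0.26 (SE 0.08, edgeR adjusted p 0.0479). That call was lost without TC + ATA replicate 1, 2 or 3, at an edgeR adjusted p of 0.105, 0.117 or 0.106 (0.00183 to 0.322 over all 12 alternatives), and also with DESeq2, without the filter on low counts, and under library-total or upper-quartile scaling. Elovl6, which lengthens palmitate, measured 126.8 and 151.2 CPM in EV, 114.8 in TC, and 127.7, 122.8 and 117.8 in TC + ATA. The EV libraries differed from each other about as much as their mean differed from TC. Elovl6 was not called in TC versus EV, with a log2 fold change of -0.28 (SE 0.11, edgeR adjusted p 0.102). It was called lower once EV replicate 1 was left out, with a log2 fold change of -0.41 and an edgeR adjusted p of 1.38e-04 (1.38e-04 to 0.366 over all 12 alternatives), and also without the filter on low counts, at 0.0487. Without EV replicate 2 the log2 fold change of Elovl6 was -0.15.

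Scd1 and Scd2 encode desaturases that make oleate and palmitoleate, and both lie on chromosome 19. Scd1 measured 169.1 and 149.4 CPM in EV, 158.6 in TC, and 185.1, 177.8 and 165.2 in TC + ATA. Its TC value lay between the EV values, and 2 of the 3 TC + ATA libraries exceeded both. Scd1 was not called in TC versus EV, with a log2 fold change of -0.01 (SE 0.10, edgeR adjusted p 0.977). Its sign was positive without EV replicate 1, at 0.07, and with DESeq2, at 0.005, and without EV replicate 2 the value was -0.10. Scd2 measured 932.3 and 786.6 CPM in EV, 529.7 in TC, and 621.0, 607.4 and 568.3 in TC + ATA. TC was the lowest library, and no TC + ATA library reached the lower EV value. Scd2 fell in TC versus EV, with a log2 fold change of -0.70 (SE 0.12, edgeR adjusted p 0.00263). Of the 75-base words of Scd2, 1.78% occur in other genes of the family, so most of its reads could be told from those of Scd1.

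Fads1 and Fads2 encode desaturases of polyunsaturated fatty acids, also on chromosome 19. Fads1 measured 402.7 and 369.2 CPM in EV, 346.1 in TC, and 370.5, 368.4 and 364.1 in TC + ATA. Its TC library was the lowest, and 1 of the 3 TC + ATA libraries reached the lower EV value. Fads1 was not called in TC versus EV, with a log2 fold change of -0.16 (SE 0.09, edgeR adjusted p 0.238). Fads2 measured 326.1 and 282.4 CPM in EV, 271.8 in TC, and 282.9, 280.8 and 275.8 in TC + ATA. The TC library was again the lowest, and 1 of the 3 TC + ATA libraries reached the lower EV value. Fads2 was not called in TC versus EV, with a log2 fold change of -0.16 (SE 0.10, edgeR adjusted p 0.277). Without EV replicate 2 both were called lower, Fads1 at an edgeR adjusted p of 9.81e-04 (9.81e-04 to 0.703 over all 12 alternatives) and Fads2 at 3.64e-04 (3.64e-04 to 0.674 over all 12 alternatives), with log2 fold changes of -0.22 and -0.26; without EV replicate 1 these were -0.11 and -0.07. Under library-total scaling both were called lower as well, with log2 fold changes of -0.26 and -0.27.

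Levels were compared between genes as CPM per kilobase of exons. In EV the highest mean level per kilobase was that of Scd2, at 157.3 CPM per kilobase, followed by Acat2 at 123.3 and Acly at 119.9. In the TC library Acly was highest, at 100.3 CPM per kilobase, and Scd2 was at 97.0 and Acat2 at 70.9. The lowest sterol enzyme in EV was Fdps, at 4.30 CPM per kilobase, below Dhcr7 at 5.65 and Tm7sf2 at 6.88. Because Fdps, Tm7sf2 and Acat2 share sequence with other genes, as given above, their places in these orders are uncertain. Among the regulators Insig1, at 63.9 CPM per kilobase in EV, and Srebf2, at 50.3, were far above Srebf1, at 9.58, and Scap, at 8.36.

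In TC + ATA versus TC, which asks what the compound did to cells with TAZ-CAMTA1, none of the 35 genes was called by edgeR, where 0.426% of all genes were called higher and 0.156% were called lower. DESeq2 called 0 of the 35 as well, and 4 were higher at an unadjusted p below 0.05 in edgeR, where 5.65% of all genes tested were. These 4 were Insig2, Acss2, Idi1 and Insig1. For Insig2 the log2 fold change was 0.30 (SE 0.08, edgeR adjusted p 0.202). For Idi1 the log2 fold change was 0.24 (SE 0.08, edgeR adjusted p 0.344). For Insig1 the log2 fold change was 0.23 (SE 0.08, edgeR adjusted p 0.351). For Acss2 the log2 fold change was 0.43 (SE 0.17, edgeR adjusted p 0.465). For these 4 genes every treated library exceeded the TC value.

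For 26 of the 35 genes all 3 treated libraries exceeded the TC value, which held for 30.5% of all genes tested, and these included 15 of the 18 sterol enzymes. The log2 fold change was positive for 28 genes and negative for 7, and for 16 and 2 of the 18 sterol enzymes. Its median was 0.11 for the sterol enzymes and 0.06 for the fatty acid enzymes, beside 0.003 over all genes. All of these shares rest on the 1 TC library. The 2 sterol enzymes with negative values were Fdps at -0.07 and Mvk at -0.001. The sign of Mvk was positive with DESeq2, with library-total and upper-quartile scaling, and without EV replicate 2 or TC + ATA replicate 1 or 3.

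In this comparison the 95% interval of the log2 fold change reached from -0.08 to 0.31 for Mvd, from -0.06 to 0.31 for Sqle and from -0.01 to 0.42 for Cyp51. Among the sterol enzymes the highest upper bound was 0.43, for Tm7sf2 and Nsdhl. For Fasn the interval was -0.41 to 0.05, and its 3 TC + ATA libraries were below the TC library. Intervals this wide also hold values in which TC + ATA and TC differ, so a missed threshold does not show equal levels.

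The spread that these tests used came partly from the EV pair. Without EV replicate 1, 5 of the 35 genes were called higher in TC + ATA versus TC (Insig1, Insig2, Idi1, Cyp51 and Scd2) and 1 was called lower (Fasn), with 707 genes called higher and 762 lower over all. Without EV replicate 2, 7 were called higher, the same 5 with Sqle and Nsdhl, and Fasn was called lower, with 808 and 608 over all genes. In a fit of the TC and TC + ATA libraries only, 6 were called higher and Fasn was called lower, with 795 and 633 over all genes, beside 79 and 29 with all 6 libraries. Without TC + ATA replicate 1, 2 or 3 none of the 35 was called by edgeR, with 28, 21 or 7 genes called higher and 12, 7 or 3 lower over all. In the fit of the TC and TC + ATA libraries only, edgeR gave Cyp51 a log2 fold change of 0.22 at an adjusted p of 0.0039 (0.0039 to 0.958 over all 12 alternatives), and Fasn one of -0.17 at an adjusted p of 0.0251 (0.0187 to 0.981 over all 12 alternatives).

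In TC + ATA versus EV, which asks how far treated cells stood from cells without the fusion, 19 of the 35 genes fell and 4 rose, where 18.6% of all genes were called lower and 18% were called higher. With library-total scaling 2711 genes were called higher and 4384 lower, beside 3340 and 3449 with TMM. The sterol enzymes gave 15 of the 19, with a median log2 fold change of -0.51, beside -0.12 for the fatty acid enzymes and -0.01 over all genes. The median of the fatty acid enzymes was -0.07 without EV replicate 1 and -0.21 under library-total scaling. Without TC + ATA replicate 1 or 2 only 2 of the 35 were called higher, with 2598 or 2577 over all genes. The sterol enzymes not called were Sqle, Ebp and Sc5d. When either EV library was left out, calls over all genes rose in both directions, so calls gained that way are not particular to these enzymes. Leaving out EV replicate 1 called Ebp higher, at an edgeR adjusted p of 9.77e-04 (9.77e-04 to 0.863 over all 12 alternatives), and Sc5d lower, at 0.0146 (0.0146 to 0.586 over all 12 alternatives), with log2 fold changes of 0.40 and -0.15; without EV replicate 2 these were 0.02 and -0.04. For Sqle the log2 fold change was -0.17 (SE 0.06, edgeR adjusted p 0.0739). Without EV replicate 1 or 2 Sqle was called lower, at edgeR adjusted p of 0.00487 and 0.00165 (0.00165 to 0.423 over all 12 alternatives), and so it was under library-total scaling, at a log2 fold change of -0.25 and 0.00484.

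The largest sterol decreases in TC + ATA versus EV were those of Mvd, Tm7sf2 and Pmvk, the 3 that were also lowest in TC versus EV. Mvd fell, with a log2 fold change of -0.88 (SE 0.07, edgeR adjusted p 1.16e-05). Tm7sf2 fell, with a log2 fold change of -0.83 (SE 0.09, edgeR adjusted p 8.95e-05). Pmvk fell, with a log2 fold change of -0.81 (SE 0.07, edgeR adjusted p 3.94e-05). For each of them the 3 TC + ATA libraries lay below both EV libraries and above the TC library.

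Insig1, called higher in TC + ATA versus EV, had 3 treated libraries above both EV libraries. Insig1 rose, with a log2 fold change of 0.25 (SE 0.06, edgeR adjusted p 0.00996). Without TC + ATA replicate 1 or 2 this call was lost, at an edgeR adjusted p of 0.0641 or 0.0549 (8.15e-05 to 0.108 over all 12 alternatives), and it was also lost under library-total scaling. Scap rose, with a log2 fold change of 0.51 (SE 0.06, edgeR adjusted p 2.39e-04). Fasn rose, with a log2 fold change of 0.30 (SE 0.08, edgeR adjusted p 0.0181). The call of Fasn was lost without TC + ATA replicate 1 or 2, at an edgeR adjusted p of 0.0841 or 0.0826 (1.02e-05 to 0.0841 over all 12 alternatives). Elovl5 rose, with a log2 fold change of 0.28 (SE 0.06, edgeR adjusted p 0.00693).

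Acly, Scd2 and Acss2 were the 3 fatty acid genes called lower in TC + ATA versus EV; 18.6% of all genes were. Without EV replicate 2, 6 were called lower, with 3974 over all genes against 3449, and without TC + ATA replicate 1, 2 and 3 the enzymes called lower were 2, 2 and 1, with 2542, 2436 and 2397 over all genes. Scd2 fell, with a log2 fold change of -0.52 (SE 0.09, edgeR adjusted p 0.00152). Acss2 fell, with a log2 fold change of -0.53 (SE 0.13, edgeR adjusted p 0.0108). Leaving out TC + ATA replicate 3 alone, the edgeR adjusted p of Acss2 was 0.0514 (4.03e-04 to 0.0514 over all 12 alternatives), and without EV replicate 1 its log2 fold change was -0.34. Acly fell, with a log2 fold change of -0.28 (SE 0.07, edgeR adjusted p 0.0143). Its call was lost without TC + ATA replicate 1, 2 or 3, at an edgeR adjusted p of 0.0676, 0.0708 or 0.0817 (9.13e-06 to 0.162 over all 12 alternatives). Calls were lost likewise for Hmgcs1 without any 1 of the 3 treated libraries, at 0.0993, 0.132 and 0.133 in edgeR (2.83e-05 to 0.224 over all 12 alternatives) and with a log2 fold change of -0.13 without EV replicate 2, and for Cyp51 without TC + ATA replicate 2 or 3, at 0.0525 and 0.0571 after adjustment in edgeR (3.10e-06 to 0.0946 over all 12 alternatives).

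The summed level of the 18 sterol enzymes was 2926 and 2750.1 CPM in EV, 1982 in TC, and 2205, 2175 and 2106 in TC + ATA. The groups did not overlap, and TC stood at 69.8% of the EV mean while the mean of TC + ATA stood at 109.1% of TC and 76.2% of EV. The summed level of the 10 fatty acid enzymes was 3111 and 2769 CPM in EV, 2534 in TC, and 2654, 2625 and 2509.9 in TC + ATA. Here TC lay among the TC + ATA libraries, below both EV libraries, at 86.2% of the EV mean. This sum leans heavily on Scd2, the highest of the 10 genes, at 932.3 and 786.6 CPM in EV and 529.7 in TC. Of the 10 enzymes 2 were called higher, 2 lower and 6 not called in TC versus EV, so the sum does not show a fall shared by the branch. The 5 regulators summed to 739.3 and 707.2 CPM in EV, 731.5 in TC and 805.2, 792.8 and 762.1 in TC + ATA, so the TC library lay between the EV libraries and the treated libraries lay above both.

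**Figure D3:**
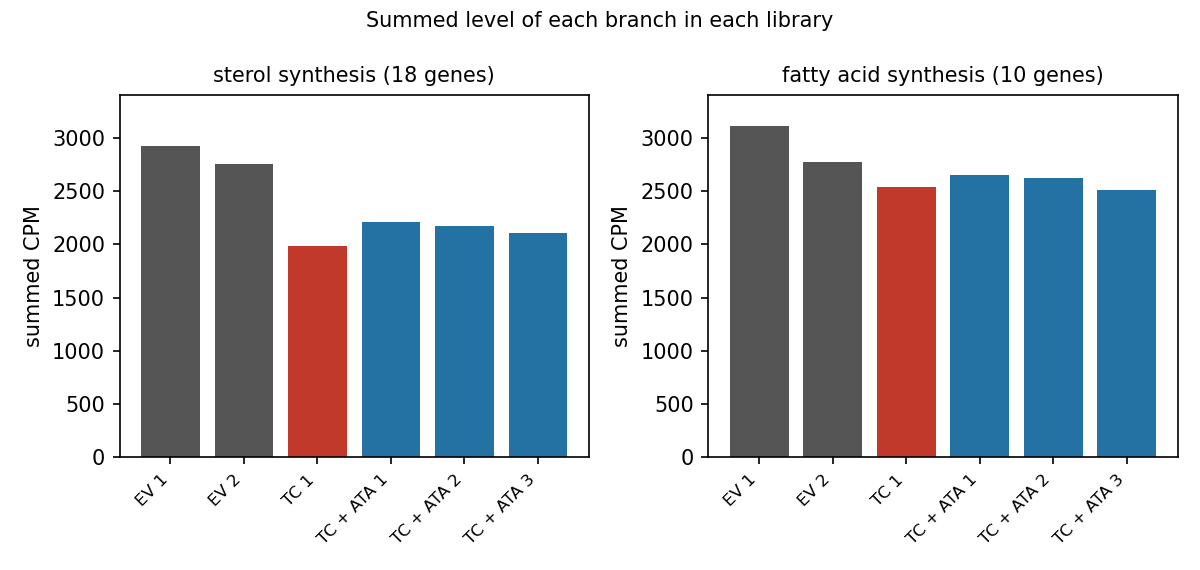
Summed CPM of the sterol enzymes (left) and of the fatty acid enzymes (right) in each library, 1 bar per library. In the sterol branch the EV bars reach 2926 and 2750.1, the TC bar 1982 and the TC + ATA bars 2106 to 2205.

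Other lists around the pathway were read in the same way. Of 9 genes of the machinery that cleaves SREBP precursors or degrades INSIG and the sterol enzymes, 6 were called higher in TC versus EV, beside 14.8% of all genes tested, and the summed level was 1087 and 1031 CPM in EV and 1309 in TC. Mbtps2, a protease that releases the active SREBP, rose: 43.4 and 46.4 CPM in EV against 62.8 in TC, and the log2 fold change was 0.48 (SE 0.08, edgeR adjusted p 0.00216). Vcp, which extracts proteins from the membrane for degradation, rose: 374.2 and 316.8 CPM in EV against 498.4 in TC, and the log2 fold change was 0.53 (SE 0.11, edgeR adjusted p 0.00624). Nploc4, a cofactor of Vcp, rose: 102.9 and 91.4 CPM in EV against 141.4 in TC, and the log2 fold change was 0.54 (SE 0.09, edgeR adjusted p 0.00182). All 3 genes were above both EV values in every library with TAZ-CAMTA1. Erlin2, a scaffold for degradation in the endoplasmic reticulum, rose in TC + ATA versus EV: 65.0 and 58.9 CPM in EV against 87.1, 84.6 and 87.0 in TC + ATA, and the log2 fold change was 0.48 (SE 0.07, edgeR adjusted p 4.85e-04). Erlin2 was also called higher in TC versus EV, at 82.1 CPM in TC and a log2 fold change of 0.405 (edgeR adjusted p 0.00722). Mbtps1, the protease that makes the earlier cut in SREBP, fell in TC + ATA versus EV: 209.8 and 210.4 CPM in EV against 184.0, 184.8 and 187.3 in TC + ATA, and the log2 fold change was -0.18 (SE 0.06, edgeR adjusted p 0.0344). Without TC + ATA replicate 1, 2 or 3 the edgeR adjusted p of Mbtps1 was 0.144, 0.158 or 0.108 (0.00114 to 0.226 over all 12 alternatives). In the fit of EV and TC alone Vcp missed the threshold.

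Among 11 other reported SREBP targets, 4 were called lower and 1 higher in TC versus EV, beside 13.2% and 14.8% of all genes, with a median log2 fold change of -0.32. Lpin1, a phosphatase of triglyceride synthesis, fell: 22.9 and 23.3 CPM in EV against 11.3 in TC, and the log2 fold change was -1.02 (SE 0.11, edgeR adjusted p 1.39e-04). Acsl3, which activates fatty acids, fell: 102.5 and 112.1 CPM in EV against 74.0 in TC, and the log2 fold change was -0.54 (SE 0.09, edgeR adjusted p 0.00168). Gpam, which starts glycerolipid synthesis, fell: 37.7 and 41.8 CPM in EV against 27.9 in TC, and the log2 fold change was -0.51 (SE 0.11, edgeR adjusted p 0.00901). In these 3 genes the TC library was the lowest of the 6. Mid1ip1, whose product activates acetyl-CoA carboxylase, rose: 25 and 21.3 CPM in EV against 36.3 in TC, and the log2 fold change was 0.65 (SE 0.11, edgeR adjusted p 0.00261). Me1, which supplies NADPH, rose in TC + ATA versus EV: 70.6 and 59.6 CPM in EV against 78.9, 79.7 and 75.9 in TC + ATA, and the log2 fold change was 0.27 (SE 0.08, edgeR adjusted p 0.0285). The call of Me1 was lost without TC + ATA replicate 1, 2 or 3, at an edgeR adjusted p of 0.0916, 0.105 or 0.0714 (7.50e-05 to 0.105 over all 12 alternatives), and without EV replicate 2 its log2 fold change was 0.16.

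Of 12 genes of the isoprenoid branch, which leaves the mevalonate pathway at farnesyl diphosphate, 2 were called lower and 1 higher in TC versus EV, compared with 13.2% and 14.8% of all genes, and the median was 0.02. Nus1, a subunit of the enzyme that makes dolichol precursors, rose: 159.9 and 159.7 CPM in EV against 238.6 in TC, and the log2 fold change was 0.58 (SE 0.08, edgeR adjusted p 6.01e-04). Fnta, a subunit of farnesyltransferase, fell: 117.2 and 103.1 CPM in EV against 78.3 in TC, and the log2 fold change was -0.49 (SE 0.10, edgeR adjusted p 0.00549). Coq2, of ubiquinone synthesis, fell: 67.2 and 71.3 CPM in EV against 55.2 in TC, and the log2 fold change was -0.33 (SE 0.08, edgeR adjusted p 0.0189). That call was lost without TC + ATA replicate 1 or 2, at an edgeR adjusted p of 0.0513 or 0.0551 (5.46e-04 to 0.197 over all 12 alternatives), and in the fit of EV and TC alone. Fntb, the partner of Fnta, fell in TC + ATA versus EV: 38.6 and 34.8 CPM in EV against 28.6, 28.6 and 26.7 in TC + ATA, and the log2 fold change was -0.39 (SE 0.07, edgeR adjusted p 0.00322).

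Of 15 genes of sterol trafficking, esterification and hydroxylation, 13 were tested, and 3 were called higher and 2 lower in TC versus EV, where 14.8% and 13.2% of all genes were. Osbpl5, a lipid transfer protein, rose: 35.6 and 38.9 CPM in EV against 86.0 in TC, and the log2 fold change was 1.21 (SE 0.10, edgeR adjusted p 2.45e-05). Soat1, which esterifies cholesterol, rose: 57.0 and 51.4 CPM in EV against 93.7 in TC, and the log2 fold change was 0.79 (SE 0.09, edgeR adjusted p 2.72e-04). Soat2, the other esterifying enzyme, rose from a very low level: 0.441 and 0.774 CPM in EV against 3.39 in TC, and the log2 fold change was 2.47 (SE 0.36, edgeR adjusted p 0.00101). For all 3 the TC and TC + ATA libraries were above EV. Stard5, a sterol carrier related to Stard4, fell: 15.1 and 13.6 CPM in EV against 8.69 in TC, and the log2 fold change was -0.73 (SE 0.13, edgeR adjusted p 0.00295). Osbp, a sterol exchanger, fell: 119.4 and 112.8 CPM in EV against 94.5 in TC, and the log2 fold change was -0.30 (SE 0.08, edgeR adjusted p 0.0256). Its call was lost without TC + ATA replicate 1, 2 or 3, at an edgeR adjusted p of 0.0665, 0.0723 or 0.0691 (5.83e-04 to 0.277 over all 12 alternatives), and in the fit of EV and TC alone.

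Among 9 LXR receptors and targets, of which 8 were tested, 2 were called higher and 2 lower in TC versus EV, set against 14.8% and 13.2% of all genes. Arl4c, an LXR target, rose: 83.9 and 85.2 CPM in EV against 110.6 in TC, and the log2 fold change was 0.39 (SE 0.08, edgeR adjusted p 0.00531). Lpcat3, a phospholipid remodelling LXR target, rose: 64.8 and 57.2 CPM in EV against 76.6 in TC, and the log2 fold change was 0.33 (SE 0.09, edgeR adjusted p 0.0263). The call of Lpcat3 was lost without TC + ATA replicate 1, 2 or 3, at an edgeR adjusted p of 0.0622, 0.0691 or 0.0698 (1.58e-04 to 0.199 over all 12 alternatives), and under library-total scaling. Rxra, a receptor that pairs with LXR, fell: 115.3 and 103.2 CPM in EV against 79.0 in TC, and the log2 fold change was -0.47 (SE 0.09, edgeR adjusted p 0.00499). Rxrb, which does likewise, fell: 106.3 and 111.5 CPM in EV against 83.1 in TC, and the log2 fold change was -0.39 (SE 0.08, edgeR adjusted p 0.00597). Arl4c and Lpcat3 had their TC value above both EV values, and Rxra and Rxrb had it below both, but in the fit of EV and TC alone all 4 missed the threshold.

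Of 19 other elongation, desaturation and mitochondrial fatty acid synthesis genes, 17 were tested, and 4 were called higher in TC versus EV, beside 14.8% of all genes. Fads3, of the same family as Fads1 and Fads2, rose: 69.7 and 72.5 CPM in EV against 231.6 in TC, and the log2 fold change was 1.70 (SE 0.07, edgeR adjusted p 1.09e-06). Hacd4, a dehydratase of elongation, rose: 0.936 and 0.734 CPM in EV against 2.97 in TC, and the log2 fold change was 1.83 (SE 0.24, edgeR adjusted p 5.34e-04). Hacd2, of the same family, rose: 28.0 and 21.4 CPM in EV against 35.3 in TC, and the log2 fold change was 0.52 (SE 0.14, edgeR adjusted p 0.0217). Without TC + ATA replicate 3 the edgeR adjusted p of Hacd2 was 0.0573 (1.82e-05 to 0.0915 over all 12 alternatives), and without EV replicate 2 its log2 fold change was 0.33. Fads3 thus stood apart from Fads1 and Fads2, which were not called, though the difference was not tested. Of 18 genes of fatty acid oxidation, 17 were tested, 8 were called lower beside 13.2% of all genes, and the median was -0.39. Cpt1c, a carnitine palmitoyltransferase, fell: 14.6 and 21.3 CPM in EV against 7.74 in TC, and the log2 fold change was -1.21 (SE 0.23, edgeR adjusted p 0.00379). Ppard, a nuclear receptor for fatty acids, fell: 64.7 and 66.8 CPM in EV against 38.7 in TC, and the log2 fold change was -0.76 (SE 0.09, edgeR adjusted p 2.29e-04). Ppargc1a, a coactivator, fell from a low level: 1.43 and 2.07 CPM in EV against 0.547 in TC, and the log2 fold change was -1.68 (SE 0.42, edgeR adjusted p 0.0167). The TC library was below both EV libraries for 14 of these 18 genes, beside 40% of all genes tested.

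Of 16 genes of fatty acid uptake and triglyceride storage, 5 were called higher and 4 lower in TC versus EV, against 14.8% and 13.2% of all genes tested. Lpl, which frees fatty acids from lipoproteins, rose: 23.2 and 25.4 CPM in EV against 188.9 in TC, and the log2 fold change was 2.96 (SE 0.09, edgeR adjusted p 1.62e-07). Agpat2, of glycerolipid synthesis, rose: 1.02 and 1.05 CPM in EV against 2.38 in TC, and the log2 fold change was 1.20 (SE 0.25, edgeR adjusted p 0.00726). Pnpla2, a triglyceride lipase, rose: 15.1 and 13.8 CPM in EV against 30.7 in TC, and the log2 fold change was 1.09 (SE 0.10, edgeR adjusted p 8.21e-05). For these 3 genes the treated libraries stayed above both EV values. Fabp5, a fatty acid carrier, fell: 171.4 and 124.7 CPM in EV against 44.5 in TC, and the log2 fold change was -1.73 (SE 0.17, edgeR adjusted p 8.41e-05). Abhd5, which activates Pnpla2, fell: 32.6 and 28.4 CPM in EV against 19.9 in TC, and the log2 fold change was -0.61 (SE 0.11, edgeR adjusted p 0.00344). Plin3, a lipid droplet coat protein, fell: 68.1 and 68.6 CPM in EV against 47.7 in TC, and the log2 fold change was -0.52 (SE 0.09, edgeR adjusted p 0.00248). In TC + ATA versus EV the rule for naming genes added these. Slc27a1, a fatty acid transporter, rose: 9.84 and 11.8 CPM in EV against 31.1, 29.7 and 31.7 in TC + ATA, and the log2 fold change was 1.51 (SE 0.10, edgeR adjusted p 4.03e-06). The TC library of Slc27a1, at 22.9 CPM, was also above both EV libraries. Dgat2, which completes triglycerides, fell: 4.26 and 3.61 CPM in EV against 3.08, 2.47 and 2.46 in TC + ATA, and the log2 fold change was -0.56 (SE 0.17, edgeR adjusted p 0.0309). Its TC library, at 2.84 CPM, was also below both EV libraries. Without EV replicate 1 or TC + ATA replicate 2 or 3 the edgeR adjusted p of Dgat2 was 0.0945, 0.104 or 0.108 (0.0153 to 0.116 over all 11 alternatives).

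Markers of cell types were read beside these results. The 10 fibroblast markers summed to 13882 and 12350 CPM in EV, 17084 in TC and 17141, 16897 and 16083 in TC + ATA, led by Col1a2 at a mean of 6449 CPM. The 9 adipocyte markers summed to 2.98 to 4.73 CPM in every library, led by Fabp4 at a mean of 1.72 CPM, with Adipoq at most 0.187 CPM, Plin1 at most 0.106 CPM and Lep at 0 in the TC library. Of these, Retn was called lower in TC versus EV, with a log2 fold change of -4.50, and against EV the treated libraries had Retn called lower, at -4.45, and Pparg called higher, at 1.32. The 6 epithelial markers summed to 0.628 and 0.38 CPM in EV, 1.2 in TC and 0.933, 1.14 and 1.28 in TC + ATA, led by Krt19 on average, with Epcam at 0 in 4 libraries and Cldn4 in 5. The 6 endothelial markers summed to 2.55 and 1.82 CPM in EV, 4.02 in TC and 3.91, 3.65 and 3.15 in TC + ATA, with Pecam1 the highest on average. Of these, edgeR called Cdh5 higher in TC versus EV and Kdr higher in TC + ATA versus EV. In TC + ATA versus EV DESeq2 called 0 endothelial markers. Among immune markers Ptprc was the most abundant, at a mean of 3.02 CPM, with Itgam at 0 in 4 libraries, and the 5 hepatocyte markers summed to at most 0.31 CPM, led by Apoa1, with Alb at 0 in 5 libraries. Thy1, Pdgfra, Dcn and Lum were called lower and Col1a1 and Vim higher in TC versus EV. The fibroblast, endothelial and epithelial sums were higher in libraries with TAZ-CAMTA1 while the sterol sum was lower, and the part of cell state in the sterol result was not tested. The libraries held 1.15% and 1.6% mitochondrial reads in EV, 1.84% in TC and 1.72% to 2.11% in TC + ATA, and the part of that difference was not tested either.

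Promoter sequences were read from RefSeq on GRCm38.p6 because most sterol enzymes fell in TC versus EV. Windows of 300 bases, from 250 before to 50 after a gene's start, were given for 28 of the 35 genes and 27025 genes in all; Fdps, Fdft1, Sqle, Stard4, Scd1, Scd2 and Fads1 had none. Each window was searched on both strands for CCAAT (NF-Y), GGGCGG (Sp1), TCACNCCAC (a sterol regulatory element) and CACGTG (E-box). CCAAT was found for 14 of 15 sterol enzymes, 4 of 7 fatty acid enzymes and 4 of 5 regulators, and for 41.1% of all genes. Acat2 was the sterol enzyme without that motif. The Sp1 motif GGGCGG was found for 14 of 15 sterol enzymes, 3 of 7 fatty acid enzymes and all 5 regulators, and for 38.2% of all genes. Pmvk was the sterol enzyme without GGGCGG. TCACNCCAC was found for 1 gene of the 28, Hmgcs1, and for 1.44% of all genes. Only this exact string was searched, so a window without a match is not shown to lack a sterol regulatory element. CACGTG was found for 7 of the 28 and for 8.09% of all genes. A match describes letters in a window, not a bound site, and per window the shares of all promoters were 37.4% for CCAAT, 35.7% for GGGCGG, 1.24% for TCACNCCAC and 7.15% for CACGTG.

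Stretches just before the start of 4 sterol enzymes that fell and of Fasn, which rose, are shown to let the motifs be compared. All are 5′ to 3′ on the gene's strand and end 1 base before the start, and capitals mark matches to the 4 motifs on either strand. Hmgcs1 lies on chr13:119690201-119690350 (plus strand, 150 bases), and its stretch holds TCACCCCAC, 1 CCAAT and 2 GGGCGG. Mvk lies on chr5:114444119-114444268 (plus strand, 150 bases), with 4 CCAAT and 1 GGGCGG. Mvd lies on chr8:122443423-122443572 (minus strand, 150 bases), with 2 CCAAT and 1 GGGCGG. Nsdhl lies on chrX:72918412-72918520 (plus strand, 109 bases), with 2 CCAAT and 1 GGGCGG. Fasn lies on chr11:120824548-120824697 (minus strand, 150 bases), with 3 CCAAT, of which 2 overlap on opposite strands, and no GGGCGG. Of the sterol enzymes that fell and are not shown, Pmvk had no GGGCGG in such stretches, and Acat2, Cyp51 and Dhcr7 had no CCAAT. Among genes not called in TC versus EV, Ebp had 1 CCAAT and 1 GGGCGG, and Acly had 4 GGGCGG and no CCAAT. Sc5d, also not called, had 1 CCAAT and no GGGCGG, and Acaca had neither. Elovl5, which rose, had 2 CCAAT and no GGGCGG. Whether these motifs go with a fall was not tested.
Hmgcs1: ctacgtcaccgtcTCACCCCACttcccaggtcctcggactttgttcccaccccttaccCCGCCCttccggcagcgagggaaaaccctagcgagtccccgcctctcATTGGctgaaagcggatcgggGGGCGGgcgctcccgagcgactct
Mvk: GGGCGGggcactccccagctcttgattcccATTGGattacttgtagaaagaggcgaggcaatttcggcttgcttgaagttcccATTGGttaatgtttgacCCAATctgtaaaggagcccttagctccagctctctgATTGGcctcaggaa
Mvd: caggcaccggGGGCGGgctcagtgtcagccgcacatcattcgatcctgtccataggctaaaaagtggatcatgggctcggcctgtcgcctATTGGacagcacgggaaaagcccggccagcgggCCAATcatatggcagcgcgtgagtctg
Nsdhl: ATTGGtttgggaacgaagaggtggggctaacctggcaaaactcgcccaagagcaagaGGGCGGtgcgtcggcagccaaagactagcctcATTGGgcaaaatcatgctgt
Fasn: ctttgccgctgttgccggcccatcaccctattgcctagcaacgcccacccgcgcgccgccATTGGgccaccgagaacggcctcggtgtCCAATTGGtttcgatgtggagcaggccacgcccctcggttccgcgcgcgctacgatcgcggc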

How the data were processed

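RNA-Seq counts per gene of 6 NIH3T3 libraries were used as deposited; per the submitters' processing notes, the authors aligned reads with HISAT2 2.2.1 to mm10 and counted them per gene before the counts were deposited. Genes were named by Ensembl identifier with GENCODE M21. In R 4.3.3, edgeR 4.0.16 fitted all 6 libraries together (TMM, filterByExpr, quasi-likelihood F test, 1 coefficient per group, 3 residual degrees of freedom), with Benjamini-Hochberg adjustment over 18539 genes, and the pipeline was tested on simulated data. DESeq2 1.42.0 was an alternative, beside other scalings, filters, groupings and left-out libraries. SE is the size of the log2 fold change over the square root of F. The median library held 71053010 reads. The 35 genes and all other lists were chosen with earlier results of these data known. All 35 are named; of each other pathway list up to 3 genes called in each direction of each comparison are named, those with the largest log2 fold changes among genes with a mean of at least 1 CPM. Shared words of 75 bases were counted over all GENCODE transcripts, and motifs in RefSeq promoters, with Python 3.11.15; figures used matplotlib 3.10.9.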

Additional observations from a re-analysis of the deposited data

How the results depend on the processing

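The settings tried were DESeq2 in place of edgeR, a fit of only the groups compared, library-total and upper-quartile scaling, no filter on low counts, a filter of 5 CPM in 1 library, a replicate block, and leaving out each library but TC in turn. In all of them Scap was called higher and Acat2, Pmvk, Mvd, Idi1, Fdft1, Lss, Tm7sf2, Nsdhl, Hsd17b7, Dhcr7, Stard4, Scd2 and Acss2 lower in TC versus EV. There the sterol enzymes called lower numbered 11 to 17 against 16, and in TC + ATA versus EV 12 to 17 against 15. When an EV library is left out, EV and TC have 1 library each, so the spread comes from the 3 TC + ATA libraries alone. The lone EV and TC libraries are then assumed to vary as those do. In TC versus EV the genes called higher were 1 of 35 with only the groups compared, and the fatty acid enzymes called higher, 2 of 10 at first, were 1 with DESeq2, 0 with only the groups compared, 1 with library-total scaling, 1 with upper-quartile scaling, 1 with no filter and 1 to 2 with a library left out. Those called lower, 2 at first, were 5 with library-total scaling and 2 to 5 with a library left out; sterol enzymes called higher were 0 to 1 with a library left out, and their median with library-total scaling was -0.698. In TC + ATA versus TC, where none was called, a fit of only the groups compared called 6 genes higher (3 sterol, 1 fatty acid) and 1 lower (1 fatty acid); leaving out a library called 0 to 7 higher (0 to 4 sterol, 0 to 1 fatty acid) and 0 to 1 lower (0 to 1 fatty acid). Over all genes this comparison gave 79 calls higher and 29 lower, with 236 and 85 by DESeq2, 242 and 108 without the filter, 795 and 633 with only the groups compared, and 7 to 808 and 3 to 762 with a library left out. In TC + ATA versus EV, fatty acid enzymes called lower were 6 with library-total scaling against 3, and the sterol median was -0.594 there and -0.526 to -0.395 with a library left out; leaving out a library gave 2 to 6 genes called higher, 0 to 1 sterol and 1 to 3 fatty acid, and 1 to 6 fatty acid enzymes called lower. Over all genes TC versus EV gave 1912 to 3708 lower calls with a library left out against 2456. In TC + ATA versus EV, calls over all genes rose in both directions when either EV library was left out. Without TC + ATA replicate 1, 2 or 3 they fell, to 2598, 2577 or 2613 higher against 3340, and to 2542, 2436 or 2397 lower against 3449. Signs of log2 fold changes turned for some genes. In TC versus EV these were Scd1 (0.005 with DESeq2, 0.011 with the 5 CPM filter, -0.095 to 0.074 with a library left out), Insig1 (-0.084 with library-total scaling, -0.012 to 0.049), Acaca (-0.102 with library-total scaling, -0.003 with upper-quartile scaling, -0.003 with no filter, -0.028 to 0.025), Ebp (-0.06 to 0.332) and Abca1 (-0.476 to 0.053). In TC + ATA versus TC these were Mvk (0.003 with DESeq2, 0.01 with only the groups compared, 0.02 with library-total scaling, 0.003 with upper-quartile scaling, 0.01 with the 5 CPM filter, -0.038 to 0.023 with a library left out) and Acly (-0.037 to 0.001), and in TC + ATA versus EV Srebf1 (-0.006 with library-total scaling), Srebf2 (-0.096 to 0.031) and Abca1 (-0.052 to 0.464). The labels do not pair libraries by replicate number, and deviations from group means of same-numbered EV and TC + ATA libraries correlated at -0.016 for number 1 and -0.164 for number 2. A replicate block by that number left 1717 genes called higher and 1467 lower for TC against EV, 32 and 8 for treated against untreated TC, and 2450 and 2195 for treated TC against EV. With the block 1 of the 35 was called higher in TC versus EV, 0 of them fatty acid enzymes, and 12 sterol enzymes lower; in TC + ATA versus EV 1 was called higher, 0 of them fatty acid enzymes, and 12 sterol enzymes lower; in TC + ATA versus TC the sterol median was 0.167, the fatty acid median 0.093, Srebf1 0, Mvk 0.038 and Acly 0.035. The cause of these shifts was not tested. Depth limited Abca1, with 14 to 32 reads a library.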

Other observations

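The libraries differed in how far they stood from each other over all genes. The 2 EV libraries differed by a chi-square of 63.0 per degree of freedom, against 6.02 to 6.74 for pairs of TC + ATA libraries and 23.4 to 25.5 for TC with a TC + ATA library, where sampling noise alone would give 1. The spread of the EV pair enters every test because all groups share 1 estimate of spread for each gene.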
